A study of Caenorhabditis elegans with 4 samples.

Results

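The strong compact HTZ-1 sites are peaks of the series' combined list that carry a high score, are narrow and were found in both ChIP replicates. Peaks were taken when their score was 100 or more, their width was below 2000 bp, and they shared at least 1 bp with a peak of each replicate. This gave 827 of the 7546 peaks, or 11.0% of the combined list. They were thus chosen by score, width and overlap, and these values are given only as a description. The series mapped HTZ-1 by ChIP-seq, the sequencing of DNA recovered with an antibody from fixed chromatin. The embryos were of the wild-type strain N2, of mixed stages and of both sexes, and were raised at 20 °C and fixed with 2% formaldehyde for 30 min. It holds 2 HTZ-1 ChIP samples, made with an affinity-purified rabbit polyclonal antibody to the N-terminus, and 2 input samples that are not analysed here. The embryos came from a mixed population by bleaching of adults, so each list averages over the cell types and stages present. The labels do not say whether the 2 ChIP samples came from separate cultures.

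HTZ-1 is the nematode form of the histone variant H2A.Z. A chromatin remodelling complex of the SWR1 and SRCAP type exchanges it for H2A in selected nucleosomes, and in many eukaryotes those nucleosomes flank the start sites of genes. In C. elegans embryos the variant is known for its presence at many promoters and for being sparse on X. The autosomes of this worm have gene-dense centres with low recombination and arms that are richer in repeats and recombine more.

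Of the 7546 combined-list peaks, 1011 (13.4%) scored 100 or more, and 828 of these were narrower than 2000 bp. Only 1 of the 828 failed the overlap, against a background of 57.6% of all combined-list peaks that met both replicates. It lay on chromosome I at 5164240 to 5166088 (WormBase WS220, 1-based, as for all positions here), scored 116 and met a replicate 2 peak but no replicate 1 peak. The remaining 183 peaks with a score of 100 or more were 2000 bp or wider, all of them met both replicates, and they are called strong wide sites. A further 3139 peaks met both replicates, were below 2000 bp and scored below 100, and are called weaker compact sites. Both sets stand beside the 827 sites below. Differences between the sets are described with exact binomial (Clopper-Pearson) 95% intervals, which cover counting error only, and were not tested, since neighbouring peaks of the same libraries are not replicates.

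The limits cut through a continuous range. The lowest-scoring sites kept were on chromosome II, at 6244892 to 6246166 and 8786238 to 8787819, both with a score of 100.16. The highest-scoring compact peak left out was also on chromosome II, at 8883602 to 8885247, with 99.97. The widest sites kept were on chromosome III at 5878031 to 5880028 and on chromosome I at 13658958 to 13660955, each 1998 bp wide. The narrowest strong peak left out was on chromosome V at 9980010 to 9982012, at 2003 bp.

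The sites together covered 1.27 Mb, which is 19.1% of the length covered by the combined list and 1.27% of the chromosome spans. Scores had a median of 126 (quartiles 112 and 141) and reached 223.15. In all, 141 sites scored 150 or more and 1 scored 200 or more. The strong wide sites had a median score of 127 and reached 208.

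Strong compact sites were found on all 6 chromosomes and were rarest on X. Chromosome I held 210 of them (25.4%, 95% interval 22.5% to 28.5%) and chromosome III 185 (22.4%, 19.6% to 25.4%). Over the whole combined list, I and III held 22.6% and 19.7% of the peaks, and both intervals hold these shares. Chromosomes II, IV and V held 154 (18.6%), 138 (16.7%) and 117 (14.1%), against 15.4%, 17.9% and 14.6% of the whole list. The interval for II (16.0% to 21.4%) lies above its share of the whole list. Those for IV (14.2% to 19.4%) and V (11.8% to 16.7%) hold theirs. X held 23, which is 2.78% of the set (1.77% to 4.14%), against 9.81% of the whole list. Among the strong wide sites X held 1 of 183, or 0.546% (0.0138% to 3.01%), and among the weaker compact sites it held 359 of 3139, or 11.4% (10.3% to 12.6%). The interval for the strong compact sites thus overlaps that for the strong wide sites and lies below that for the weaker compact ones.

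Counted in bins of 1 Mb, chromosomes I and III had 13.8 ± 4.33 (SD, n = 15 bins) and 13.3 ± 4.01 (SD, n = 14 bins) sites per Mb. Chromosome II had 10.1 ± 4.75 (SD, n = 15), chromosome IV 8.00 ± 3.76 (SD, n = 17) and chromosome V 5.63 ± 3.12 (SD, n = 21). X had 1.28 ± 1.23 (SD, n = 18), against 9.75 ± 5.02 over the 82 autosomal bins. The bins of I and III overlapped widely in their counts, and so did those of II and IV. Per Mb of chromosome span, the whole combined list had 113 peaks on I, 108 on III and 75.9 on II. It had 77.3 on IV, 52.7 on V and 42.0 on X. Chromosomes I and III were thus the densest autosomes and V the sparsest for combined-list peaks in general as well. On X 6 of 18 bins were empty and no bin held more than 4 sites, whereas 2 of the 82 autosomal bins were empty.

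**Figure D1:**
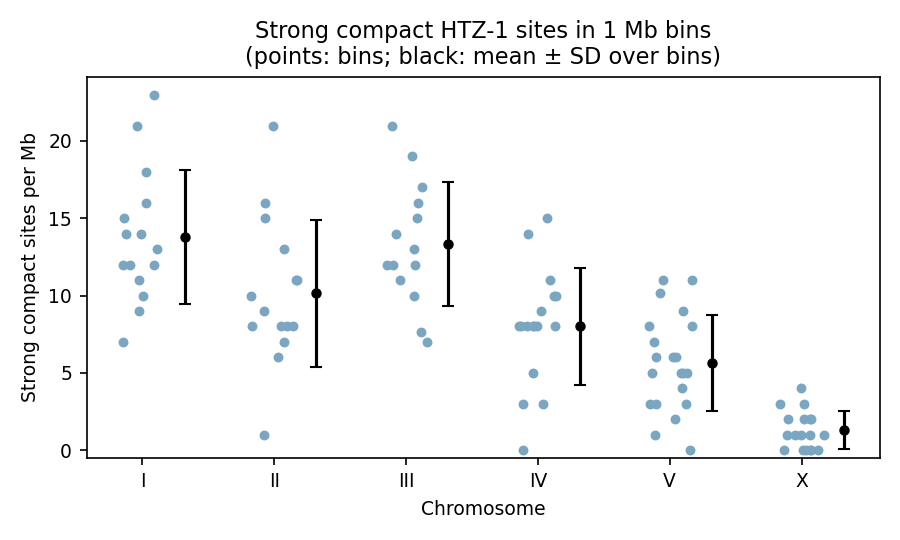
Strong compact sites per Mb (vertical axis) in each 1 Mb bin (blue points) of the 6 chromosomes (horizontal axis), with the mean and SD over bins in black. Bins of I and III reach 23 and 21 sites, and bins of X stay at 4 or fewer.

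The densest bin was on chromosome I between 8 and 9 Mb, with 23 sites. Bins with 21 sites followed on chromosome I (from 10000001), chromosome II (from 11000001) and chromosome III (from 4000001). The empty autosomal bins lay on chromosome IV at 15000001 to 16000000 and on chromosome V at 3000001 to 4000000. These sparse places were not free of HTZ-1 peaks. The longest autosomal stretch without a strong compact site ran over 2037 kb of the right arm of chromosome IV, from 14825918 to 16862903. It held 80 combined-list peaks, 44 of them found in both replicates, and the highest score among them was 179. A stretch of 1382 kb on chromosome V, from 16539015 to 17920899, held 48 combined-list peaks with scores of up to 195.

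X was also low in the share of its own peaks that were strong and compact. Of the peaks found in both replicates, 5.91% on X (23 of 389, interval 3.78% to 8.74%) were strong and compact, against 20.3% on the autosomes (804 of 3955, interval 19.1% to 21.6%). Across the autosomes this share ran from 17.2% on IV to 22.6% on II, and the 5 intervals overlapped one another. The share of strong peaks of any width was 6.17% on X and 24.9% on autosomes. The sites on X were also at the weak end of the set, with a median score of 111 against 126 on autosomes and a median width of 1409 bp against 1546 bp. When the 827 sites were divided into 4 equal classes by score, X had 2 sites in the highest class and 12 in the lowest.

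Within the first 0.4 Mb of X lay 4 of the 23 sites, at 162881, 229452, 238859 and 382143. The highest-scoring X site was the one at 238859 to 240252, with a score of 159 and rank 115 in the combined list. It stood at the score of 3100 in each replicate, as did its neighbour at 229452 to 230802. The site at 162881 to 164595 scored 3223 in replicate 1, rank 2 of that list, and 2759 in replicate 2, rank 248. Its combined-list score was 111, against 152 and 159 for the sites at 229452 and 238859. In replicate 1, 464 peaks tie at exactly 3100 and the scale is not stated. A rank above that tie may therefore not mean a stronger peak. In all, 11 X sites lay in the left arm, 8 in the centre and 4 in the right arm. The interval of the share in the right arm (17.4%, 4.95% to 38.8%) holds the 33.7% of all X peaks found in both replicates. The longest stretch without such a site in the genome was on X, 2580 kb from 11657410 to 14237226, and it held 100 combined-list peaks, none scoring above 96.2.

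On the autosomes, strong compact sites were less dense on the arms than in the centres. The centre was taken as the middle 1/3 of each autosome by length and the arms as the rest. There were 8.73 sites per Mb on the arms and 11.8 in the centres, and the arms were the sparser part of each of the 5 autosomes. Of the 804 autosomal sites, 480 lay on arms, or 59.7% (interval 56.2% to 63.1%), where arms make up 66.7% of the length. The weaker compact sites had 61.9% on arms (60.0% to 63.7%) and the strong wide sites 72.5% (65.4% to 78.9%). The interval of the strong compact sites overlaps that of the weaker compact sites and lies below that of the strong wide ones.

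By chromosome, arm shares were 63.8% on I, 60.4% on II, 58.9% on III, 58.1% on V and 55.1% on IV, with overlapping intervals. On chromosome IV the sites lay mainly in the left arm (54) and the centre (62), with 22 in the right arm, or 3.77 per Mb against 9.26 in the left arm. The right arm thus held 15.9% of the strong compact sites of IV (interval 10.3% to 23.1%), against 40.5% of its strong wide sites (24.8% to 57.9%) and 25.5% of its peaks found in both replicates (22.5% to 28.7%). On the other autosomes the right arm held more sites than the left, with overlapping intervals on each. Among all peaks found in both replicates the right arm also held more on II and III. There the left arm held more on I (343 against 273) and V (187 against 156). When each autosome was cut into 10 equal segments, segment 6 from the left held 15.05% of the sites (interval 12.6% to 17.7%) and segment 9 held 6.47% (4.87% to 8.40%). Among all autosomal peaks found in both replicates these segments held 12.2% and 7.64%, and in the whole combined list 10.2% and 8.99%. Both intervals of the strong compact sites thus overlap those of the peaks found in both replicates (11.2% to 13.3% and 6.83% to 8.51%).

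The share of sites on arms was larger in the higher score classes. When the 827 sites were divided into 4 equal classes by combined-list score, 148 of the 205 autosomal sites in the highest class were on arms, or 72.2% (interval 65.5% to 78.2%). In the lowest class 101 of 195 were on arms, or 51.8% (44.5% to 59.0%). The classes between gave 60.7% for the upper and 53.7% for the lower one. Over the whole combined list 65.8% of autosomal peaks lay on arms, and over the peaks found in both replicates 61.8%. The interval of the highest class holds the share of the whole list and the arms' 66.7% of the length, and the interval of the lowest class lies below all 3 shares. The highest class had the higher arm share on each of the 5 autosomes, with 82.6% against 64.9% on I, 70.5% against 44.4% on II and 71.1% against 55.3% on III. It had 70.3% against 40.0% on IV and 63.6% against 44.0% on V. By chromosome the intervals overlap in each pair. The left arms held 38.05% of the highest class (interval 31.4% to 45.1%) and 20.5% of the lowest (15.1% to 26.9%). The right arms held 34.1% and 31.3%, with overlapping intervals.

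Below the score limit of the strong sites, arm placement ran the other way, so the share on arms was lowest at middle scores. Among compact autosomal peaks found in both replicates, 67.8% of those scoring below 20 lay on arms (interval 64.6% to 70.9%). The share was 50.5% for scores of 60 to 80 (45.5% to 55.4%), 52.3% for 80 to 100 (47.2% to 57.3%) and 50.9% for 100 to 120 (45.4% to 56.5%). It was 67.8% for 140 to 160 (59.5% to 75.4%) and 82.3% for scores of 160 or more (72.1% to 89.96%, 65 of 79 sites). Over peaks of all widths the corresponding shares were 68.1%, 52.4%, 52.9%, 52.7%, 70.6% and 85.2%. The strong wide sites, in 4 equal classes from the lowest to the highest score, had 63.0%, 58.7%, 79.5% and 89.1% on arms, and the intervals of the lowest (47.5% to 76.8%) and the highest class (76.4% to 96.4%) overlap.

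**Figure D2:**
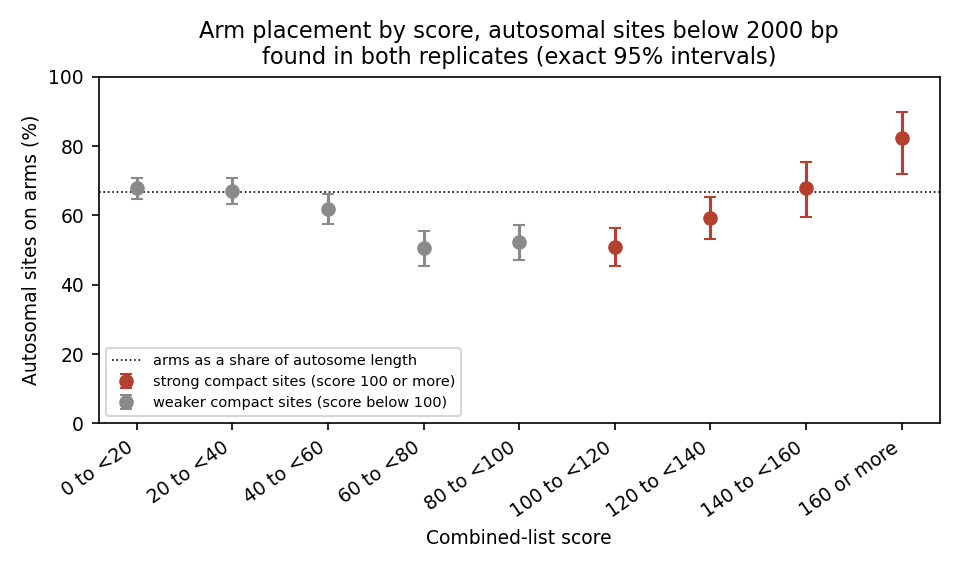
Share of autosomal peaks that lie on arms (vertical axis, %) in steps of combined-list score (horizontal axis), for compact peaks found in both replicates, with exact 95% intervals; red marks strong compact sites, grey the weaker compact ones, and the dotted line the arms' share of autosome length. The share is 67.8% below a score of 20, between 50.5% and 52.3% from 60 to 120, and 82.3% at 160 or more.

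The replicate lists were unequal in this respect. By replicate 2 score, the top 25% of the sites had 75.7% on arms (interval 69.2% to 81.5%) and the bottom 25% had 50.0% (42.8% to 57.2%). By replicate 1 score these shares were 61.5% and 58.5%, with overlapping intervals. In replicate 1, 329 of the 827 sites stood at 3100 or above, so ties at 3100 span the boundary of its top 25%. The tied sites were divided there by their order along the chromosomes, which has no relation to score. Comparing sites at 3100 or above with those below, replicate 1 gave 59.0% and 60.2% on arms and replicate 2 gave 80.2% and 56.9%. The rise of the arm share with score was therefore present in the combined list and in replicate 2, and was not seen in replicate 1. However, 39.8% of the sites stood at 3100 or above in replicate 1, against 11.9% in replicate 2. Replicate 1 scores cannot order the sites within that range and so cannot show a rise there. What this difference between the replicates comes from was not tested.

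Some of the arm sites lay near the chromosome ends. Those within 1 Mb of either end made up 14.1% of the autosomal sites in the highest score class (interval 9.68% to 19.7%) and 8.21% of those in the lowest (4.76% to 13.0%). With these sites set aside, 67.6% of the autosomal sites in the highest class and 47.5% of those in the lowest still lay on arms.

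In each replicate, every one of the 827 sites met exactly 1 peak and lay wholly inside it. The deposited lists thus place each site within a wider replicate peak, which is called its partner here. This was not particular to these sites. Of the strong wide sites, 100% and 96.7% lay inside their partners in replicates 1 and 2, and of the weaker compact sites 99.2% and 96.1%. The 827 sites had 808 distinct partners in replicate 1 and 815 in replicate 2, or 21.0% and 22.3% of those lists. The combined list is assumed to rest on the reads of both replicates, so the ranks of the partners are a description of the same data and not separate support.

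Most partners ranked high in both lists. Fewer stood at 3100 or more in replicate 2 than in replicate 1, as was also so over the whole lists. In replicate 1, 595 sites (71.9%, interval 68.7% to 75.0%) had a partner in the top 25% of the 3848 peaks by score, where the list as a whole has 25.0% by construction. Among the other combined-list peaks found in both replicates, 23.2% had such a partner. In replicate 2, 567 sites (68.6%, interval 65.3% to 71.7%) had a partner in the top 25% of the 3650 peaks, against 18.1% of the other peaks found in both. Both partners were in the top 25% for 500 sites, only the replicate 1 partner for 95, only the replicate 2 partner for 67, and neither for 165.

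The median partner rank was 652 in replicate 1 and 624 in replicate 2. Partners of the strong wide sites ranked higher, with medians of 54 (the rank shared by peaks tied at 3100) and 225, and those of the weaker compact sites lower, with 2025 and 2176. Partners at a score of 3100 or more were found for 329 sites in replicate 1 (39.8%, against 13.4% of all its peaks) and for 98 in replicate 2 (11.9%, against 4.85%). Both replicates reached that score at 89 sites. The strong compact sites lay in 59.9% of the peaks in the top 25% of replicate 1 and in 61.0% of those in replicate 2, while 22.3% and 21.2% of these peaks held neither a strong compact nor a strong wide site.

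**Figure D3:**
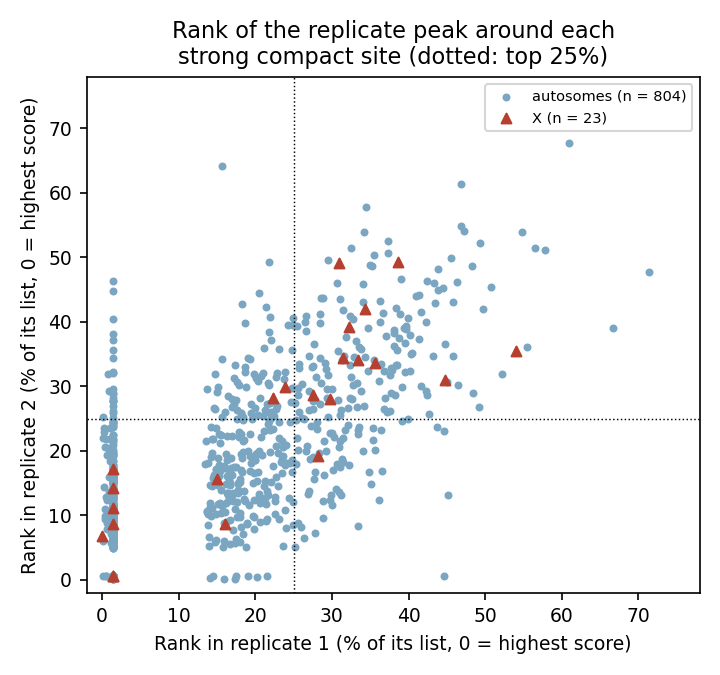
Rank of the replicate peak around each strong compact site as a percentage of its list, with replicate 1 on the horizontal and replicate 2 on the vertical axis and 0 the highest score; blue points are autosomal sites, red triangles X sites, and dotted lines bound the top 25% of each list. The 500 sites in the lower left field rank in the top 25% of both lists, and the column at the left edge holds peaks tied at 3100 in replicate 1.

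The order of the sites was shared between replicates only in part. Across the 827 sites the Spearman rho of partner scores was 0.663, and 0.597 over the 489 sites below 3100 in both replicates. It was 0.820 over the other 3517 peaks found in both replicates, which span a wider range of scores. The combined-list score of the sites had a rho of 0.431 with the replicate 1 score and 0.571 with the replicate 2 score. All these are correlations across peaks of shared libraries and carry no p value.

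Among the 10 highest-scoring sites, 7 stood at 3100 or above in both replicates. They were led by the site on chromosome I at 1609501 to 1611051 (score 223.15, width 1551 bp), at 3100 in both replicates. The sites on chromosome I at 662855 to 664417 and chromosome II at 2786334 to 2788017, both with 199, also stood at 3100 in both. So did those on chromosome II at 14153499 to 14155258 (192) and 254279 to 255803 (192), and on chromosome IV at 1328263 to 1329701 (187). The site on chromosome III at 7122217 to 7123990 (192) had 3100 in replicate 1 and 3162 in replicate 2.

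The other 3 of these 10 were lower in at least 1 replicate. The site on chromosome IV at 9403125 to 9404370 (196) had 2378 in replicate 1 and 2457 in replicate 2, ranks 825 and 334. The site on chromosome V at 20089693 to 20091577 (188) had 3100 and 3033, and the site on chromosome III at 1495197 to 1496875 (187) had 2840 and 3194. Of the 10 sites, 8 lay on autosome arms and 2, on III at 7122217 and on IV at 9403125, in a centre. Arms held 72.2% of the autosomal sites in the highest score class and 65.8% of the autosomal peaks of the whole combined list.

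A small number of sites ranked low in the replicates despite their combined score. Partners in the lower 50% of the list were found for 10 sites in replicate 1 and 15 in replicate 2, and for 4 sites in both. The lowest in replicate 1 was on chromosome V at 19082017 to 19082727, with a combined score of 106, a replicate 1 score of 304 (rank 2745) and a replicate 2 score of 671 (rank 1742). It was followed by chromosome III, 11970915 to 11971714, with 401 and 881 in replicates 1 and 2. The lowest in replicate 2 was on chromosome II at 11749323 to 11750519, with 542 in replicate 1 (rank 2345) and 295 in replicate 2 (rank 2474). The widest disagreement in this group was at chromosome II, 8786238 to 8787819, with 2867 in replicate 1 (rank 605) and 348 in replicate 2 (rank 2341). The site on chromosome IV at 10842161 to 10843229 had 978 and 393.

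X sites ranked lower in both replicates than the others. Their median partner rank was 1059 in replicate 1 and 1032 in replicate 2, against medians between 597 and 690 in replicate 1 and between 535 and 702 in replicate 2 on the 5 autosomes. In the top 25% stood 11 and 10 of the 23 X partners, in replicates 1 and 2. The autosomes had 70.1% to 73.9% there in replicate 1 and 63.6% to 72.9% in replicate 2.

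Most of the sites were similar in width. They ran from 622 to 1998 bp with a median of 1540 bp (quartiles 1377.5 and 1702.5 bp). Between 1250 and 1750 bp lay 576 sites (69.6%), and 25 were narrower than 1000 bp. The weaker compact sites spread more widely under the same limit, with quartiles of 662 and 1351 bp around a median of 1038 bp. Median widths of the strong compact sites differed little between the autosomes, from 1531 bp on V to 1561.5 bp on I, or between autosome arms and centres, 1545.5 and 1554.5 bp.

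The narrowest sites were on chromosome IV at 12208605 to 12209226 (622 bp, score 122), on chromosome V at 19082017 to 19082727 (711 bp, score 106) and on chromosome V at 10807390 to 10808137 (748 bp, score 139). The first had 631 in replicate 1 and 585 in replicate 2, and the last 1272 and 840, so none of the 3 reached the top 25% of either list. Besides the sites of 1998 bp given above, the widest was on chromosome IV at 12267330 to 12269325 (1996 bp, score 136), with 3100 and 1989. The wider sites had the higher-ranking partners. Among the widest 25% of the sites, 91.8% had a replicate 1 partner and 86.5% a replicate 2 partner in the top 25% of its list, against 33.3% and 37.7% among the narrowest 25%. Width and combined-list score had a rho of 0.182 across the 827 sites, both of whose ranges were cut by the limits that chose them. Across the other peaks found in both replicates, which span wider ranges, rho was 0.778.

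Replicate peaks extended by a similar median length on both sides of sites that they held alone. Where the site was the only combined-list peak within its partner, the replicate 1 peak reached a median of 490 bp beyond it on the left and 523.5 bp on the right (586 sites). The replicate 2 peak reached 493 and 526.5 bp (642 sites). Such partners had median widths of 2576 bp in replicate 1 and 2557 bp in replicate 2, and the site filled a median of 59.2% and 60.2% of that width. The midpoints of site and partner lay a median of 49 bp apart in replicate 1 and 45 bp in replicate 2. Over all 827 sites, the midpoints lay more than 500 bp apart at 172 (20.8%) in replicate 1 and at 108 (13.1%) in replicate 2. The furthest was on chromosome I at 11912194 to 11913912, where the replicate 1 peak reached 8971 bp beyond the site on the left and 1375 bp on the right and held 6 combined-list peaks. The files name different versions of the caller and do not state how either sets its edges, so the flanks describe the lists and not the extent of the variant.

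**Figure D4:**
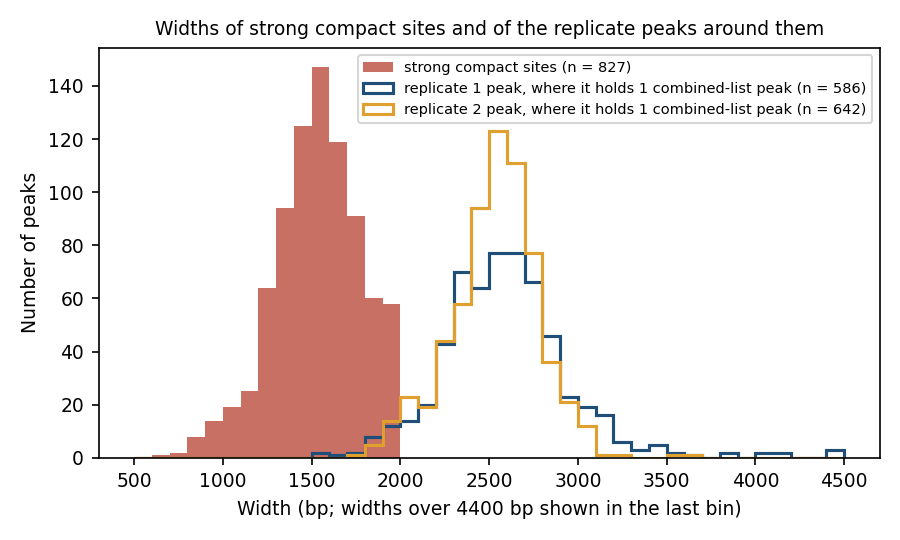
Widths in bp (horizontal axis) of the 827 strong compact sites (red) and of the replicate 1 (dark blue outline) and replicate 2 (yellow outline) peaks that hold such a site as their only combined-list peak, as numbers of peaks per 100 bp (vertical axis). The sites centre on 1540 bp and the replicate peaks on 2576 and 2557 bp.

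The starts of the 2 replicate partners differed by a median of 89 bp and their ends by 90 bp. Both edges lay within 100 bp of each other for 234 sites (28.3%) and within 200 bp for 492 sites (59.5%, interval 56.1% to 62.9%), and for 421 of the 574 sites (73.3%) that were the only combined-list peak in both partners. The replicate 1 partner was the wider one at 508 of the 827 sites (61.4%). For 173 sites (20.9%) the partner held further combined-list peaks in both replicates, and for another 68 only in replicate 1 and 12 only in replicate 2. Counting each replicate by itself, the strong compact sites were the only combined-list peak in their partner in 70.9% of cases in replicate 1 and 77.6% in replicate 2. These shares were 63.9% and 74.3% for strong wide sites and 51.1% and 54.8% for weaker compact sites.

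Most strong compact sites had no other such site within 10 kb. Such gaps depend on the number of sites in the set and were not compared with a set of equal size placed at random. Strong wide sites were not counted as neighbours here. The gap between edges to the nearest other such site had a median of 29540 bp (quartiles 11268 and 66686.5 bp). Within 1 kb of another lay 22 sites, within 10 kb 191 (23.1%, interval 20.3% to 26.1%) and within 100 kb 716 (86.6%). The median gap was 279659 bp on X and 28033.5 bp on the autosomes, where it followed density, from 20861.5 bp on I to 45802 bp on V. Autosome arms and centres had medians of 28823 and 24965 bp, and 23.5% of the sites on each had a neighbour within 10 kb.

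**Figure D5:**
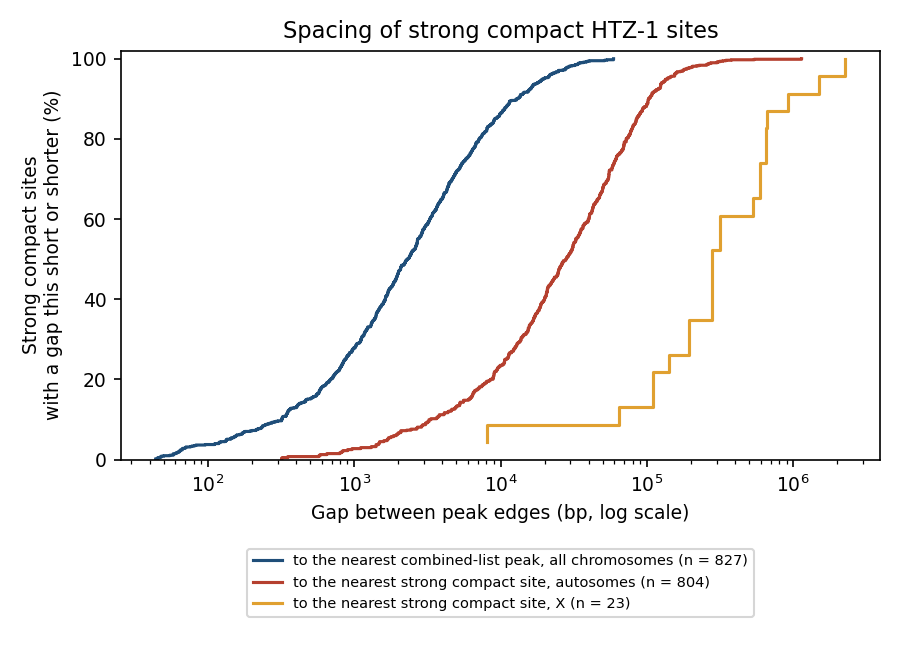
Cumulative share of strong compact sites (vertical axis, %) whose gap to the nearest other peak is at most the length on the horizontal axis (bp, log scale): to any combined-list peak (blue), to another strong compact site on autosomes (red) and on X (yellow). The medians are 2321, 28033.5 and 279659 bp.

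Chromosome V was sparser than I in strong compact sites but had a like share with a close neighbour. Of its 117 sites, 27.4% had another within 10 kb (interval 19.5% to 36.4%), against 28.1% on I (22.1% to 34.7%). Chromosome IV had 16.7% (10.9% to 24.0%), and X 2 of 23. These intervals overlap.

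When sites within 10 kb were joined, 636 stood alone, 140 formed 70 pairs and 51 formed 17 groups of 3. No group was larger. The most compact group of 3 spanned 7889 bp of chromosome I, from 10190192 to 10198080. Its first and second sites, with scores of 157 and 130, were 322 bp apart and lay inside the same peak in each replicate, both at 3100. The remaining site, with a score of 108, had a separate partner, at 1717 in replicate 1 and 927 in replicate 2. The closest pair of all was on chromosome II, at 12677226 to 12679197 (score 109) and 12679517 to 12680403 (score 145), with 319 bp between them. Altogether 38 sites shared a replicate 1 partner with another strong compact site, always as pairs, and 24 of these also shared their replicate 2 partner.

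The most isolated site was on X at 11656274 to 11657409, with 2268 kb to the nearest other strong compact site. Its score was 114, with 1780 in replicate 1 and 640 in replicate 2. It was followed by the X site at 16509042 to 16510047 (1501 kb, scores of 742 and 1009) and by the site on chromosome V at 16537375 to 16539014 (1141 kb, scores of 2953 and 1839). None of these was isolated from HTZ-1 peaks in general, since the nearest combined-list peak lay 4794, 3401 and 13644 bp away.

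The nearest combined-list peak of any kind was a median of 2321 bp from a strong compact site and had a median score of 18.5. Over the whole combined list these medians were 1495.5 bp and 14.4, and 13.4% of its peaks score 100 or more. It was a weaker compact site in 407 cases (49.2%), a peak not found in both replicates in 283 (34.2%), another strong compact site in 99 (12.0%), a weaker wide site in 21 and a strong wide site in 17. In the same order, these classes hold 3139, 3202, 827 (11.0%), 195 and 183 of the 7546 combined-list peaks. The share for another strong compact site was thus near its share of the list. A neighbour within 500 bp was present at 15.1% of the strong compact sites (interval 12.7% to 17.7%). The strong wide sites had 22.95% (17.1% to 29.7%), the weaker compact sites 38.1% (36.4% to 39.8%) and the whole combined list 31.98%. The interval of the strong compact sites thus lies below that of the weaker compact sites and overlaps that of the strong wide ones. Within 10 kb the shares were 86.5%, 86.3% and 88.2%, with overlapping intervals, and 87.5% over the whole list.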

How the data were processed

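HTZ-1 peaks were analysed from 2 ChIP samples of N2 embryos. The 3 peak lists use WormBase WS220, per the file headers. BWA and ce10 are named in the submitters' processing notes. The replicate peaks were called with MACS and the combined ones with MACS v2, per the source column of the deposited files. Thresholds, use of input and the scale of the scores are not stated there. The authors deposited 1 caller score per peak, which was used only to choose, rank and describe peaks within a list. The replicate scores run from 50.1 to 3228 and from 50.2 to 3233, the combined ones from 1.35 to 223.15. Exactly 3100 is shared by 464 peaks in replicate 1 and 155 in replicate 2, and what this value stands for is not stated. The order of peaks at and above 3100 may therefore not follow their strength. Read depth is unknown. The combined list names no sample and is assumed to rest on both replicates.

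From these files, overlaps (at least 1 bp), gaps between peak edges and ranks were computed with Python 3.11.15, pandas 2.3.3, NumPy 2.4.6 and SciPy 1.17.1, after the functions had been tested on simulated lists. Chromosome spans end at the furthest peak in any list (100.1 Mb in all), and 1 Mb bins use midpoints, a last bin over 0.5 Mb being scaled by its length. The partner is the highest-scoring overlapping replicate peak. The sites, comparison sets and summaries were chosen with earlier results of these data known, and the relation of arm placement to score after the data were examined. Sites named are the 10 highest-scoring, the highest on each chromosome, the 3 narrowest, widest, most isolated and lowest-ranked per replicate, the most compact of the largest groups, and those at each limit; other sites and stretches were chosen after their values were seen. No genome or annotation of WS220 was used here, and no genes or sequences are given. Alternatives concerned the limits, overlap, centre, neighbour distance and partner.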

Additional observations from a re-analysis of the deposited data

How the results depend on the processing

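The set is defined by its limits, and its values moved with them. With a score of 80 or more there were 1247 sites, a median gap of 20431 bp, 31.1% with another within 10 kb, 57.2% and 54.7% with a partner in the top 25% of replicates 1 and 2, and a median width of 1509 bp. With 120 or more these were 485 sites, 50783 bp, 15.7%, 83.5%, 82.5% and 1569 bp, the share on X was 1.44% and the autosomal arm share 65.7%. With widths below 1500 bp there were 352 sites, with 4.55% on X, a median gap of 83637.5 bp, 9.66% within 10 kb, 48.3% in the top 25% of either replicate and a median width of 1346.5 bp. With widths below 2500 bp the replicate 1 share was 75.03% and the median width 1581 bp. Reciprocal overlap of at least 50% left 550 sites, a median gap of 47531 bp and 17.5% within 10 kb. A centre of 1/2 of each autosome gave an arm share of 41.5%, where the arms then make up only 1/2 of the length. Neighbour limits of 5 and 20 kb gave 12.8% and 39.3%. With the overlap asked of replicate 2 only or of replicate 1 only there were 828 and 827 sites. The arm share was 59.6% and 59.7%, and no other value left its interval. These 2 settings changed only the overlap rule and kept the combined scores, the widths and the partner ranks. They therefore cannot show how far the results depend on either replicate. The difference in arm share between the top and bottom 25% by score, 20.4 percentage points (95% interval 11.1 to 29.7), lay between 11.4 and 25.7 in the other alternatives, all added after the data were examined, and was 3.04 (-6.62 to 12.7) by replicate 1 score, where ties order the top 25%. It was 11.4 with an interval of -3.03 to 25.9 for widths below 1500 bp. No paired analysis was possible because the lists used here belong to ChIP samples only, which form 1 group, and no result comes from a test. Unknown read depth and scales of score limit all comparisons of strength.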
